A study of Homo sapiens with 30 samples.

Results

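Keratin-associated protein genes (symbols of the form KRTAP, a family number and a member number) were followed in RNA from HEK293FT cells and in lamina-associated domains of HCT116 cells. Of the 27630 gene rows of the count tables, 93 carried such a symbol, and all 93 were kept as members. The antisense gene KRTAP5-AS1 does not match that form and was treated as a neighbour. Most members gave no read in these cells: 68 of 93 had no count in any of the 8 RNA libraries, 21 had 1 to 3 counts in all, and 3 (KRTAP5-2, KRTAP5-1 and KRTAP19-1) gave 233 of the 268 counts of the family. KRTAP5-AS1 covers 1047 of the 1118 exonic bases of KRTAP5-2 and strand was ignored, so those reads cannot be assigned to KRTAP5-2 alone. A large share of the family, 32 of 93, lay inside a single lamina domain of chromosome 21.

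The RNA came from HEK293FT, a derivative of a human embryonic kidney line. All 8 libraries were labelled as asynchronous cells that had received an APEX2 and lamin B1 fusion construct with Lipofectamine 2000. APEX2 is a peroxidase that tags molecules close to it with biotin, and lamin B1 is a structural protein of the inner face of the nuclear envelope. The 4 groups of 2 libraries were RNA of PFA-fixed lamina (PFA is paraformaldehyde), RNA of native lamina, and RNA of the cytosolic and of the nuclear fraction, and every group carried the construct. The fusion was introduced by transfection, so its level can vary from cell to cell. Domains came from HCT116, a colorectal carcinoma line, as 1 list for each of the G1, S and G2 stages of the cell cycle, so domains and RNA were measured in different lines.

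Keratin-associated proteins are small proteins of the hair shaft that form the matrix around keratin filaments. They fall into ultra-high sulfur and high sulfur families, rich in cysteine that forms disulfide cross-links, and high glycine-tyrosine families. Their genes sit in tandem clusters and are switched on late in the differentiation of hair follicle cells, so a kidney-derived line is not a tissue in which they are known to act. The nuclear lamina lines the inner nuclear membrane, and the long chromatin stretches that touch it, the lamina-associated domains, are known to be poor in genes and mostly silent.

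Libraries held between 2321291 counts (PFA-fixed lamina replicate 2) and 8557777 counts (native lamina replicate 1). A floor of 3 counts corresponded to a CPM (count per library total, scaled to 1e6) of 0.351 to 1.29 in a library. LMNB1, the gene of the fusion, took 0.304% to 0.520% of counts in the 4 fraction libraries and 2.96% to 9.49% in the 4 lamina libraries. Replicates correlated at 0.960 to 0.986 in log2 CPM over all genes. The header of cytosolic replicate 1 names nuclear replicate 1 as its output, but its counts stood closer to cytosolic replicate 2 (0.985) than to nuclear replicate 1 (0.916). PFA-fixed replicate 1 correlated more closely with both cytosolic libraries (0.981 and 0.977) than with its own replicate (0.960). Of the markers checked, VIM (32893 counts), NEFL (6812) and KRT8 (2608) were abundant, as is known for this line, PAX2 had 144 and PAX8 had 7 counts. Of 5 keratinocyte markers, KRT10 had 612 counts, TP63 10, DSG3 7, KRT5 2 and KRT14 1. Of 5 blood markers, CD79A had 12, LYZ 3, and PTPRC, CD3E and HBB none. Of 4 fibroblast markers, COL1A1 had 1077, LUM 64, DCN 3 and COL1A2 none. In these bulk libraries, fewer cells that express a gene and less RNA per cell cannot be told apart.

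Members formed 5 clusters when neighbours no more than 1 Mb apart were joined (coordinates on hg19). The first chromosome 11 cluster (1605572 to 1718985) held 6 ultra-high sulfur KRTAP5 genes in 113.4 kb. A second chromosome 11 cluster (71238313 to 71293921) held the other 5 KRTAP5 genes in 55.6 kb. On chromosome 17 (39149682 to 39471947), 33 members of the KRTAP1, 2, 3, 4, 9, 16, 17 and 29 families lay in 322.3 kb among the type I keratin genes. The first chromosome 21 cluster (31653627 to 32410795) held 33 members of the KRTAP6, 7, 8, 11, 13, 15 and 19 to 27 families in 757.2 kb. The second chromosome 21 cluster (45959068 to 46117959) held 12 KRTAP10 and 4 KRTAP12 genes in 158.9 kb, and all 16 lay within the span of another gene, TSPEAR (45917775 to 46131495).

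Clusters also differ in the class of protein they encode, by the textbook assignment of the families. All 22 high glycine-tyrosine genes sat in the first chromosome 21 cluster. The 31 ultra-high sulfur genes sat in both chromosome 11 clusters (6 and 5) and on chromosome 17 (20). The 39 high sulfur genes were spread over chromosome 17 (12), the first chromosome 21 cluster (11) and the second (16). KRTAP29-1 was left unclassed.

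Promoter sequences were compared as a feature that the choice of members did not use. Windows of 250 bases before to 50 bases after the gene start were matched by symbol for 79 of 93 members (RefSeq, GRCh38.p14). The sequences below are the last 80 bases before the start, 5′ to 3′ on the gene strand, with TATAAA, the core of the TATA box at which transcription machinery assembles, in capitals. They are shown because KRTAP19-1 and KRTAP19-5 are the members of the first chromosome 21 cluster with the most counts, KRTAP8-1 and KRTAP13-1 belong to other families of that cluster, KRTAP19-8 is the member outside the domain, and KRTAP5-3 is the sole member of the first chromosome 11 cluster that was matched.
KRTAP19-1 (chr21:30480368-30480447, minus strand): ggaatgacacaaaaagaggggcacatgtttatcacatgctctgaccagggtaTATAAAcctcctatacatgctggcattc
KRTAP19-5 (chr21:30502142-30502221, minus strand): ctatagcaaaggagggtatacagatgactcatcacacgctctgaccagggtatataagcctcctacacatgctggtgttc
KRTAP19-8 (chr21:31038477-31038556, minus strand): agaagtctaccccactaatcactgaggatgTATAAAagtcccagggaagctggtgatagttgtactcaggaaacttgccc
KRTAP8-1 (chr21:30813275-30813354, minus strand): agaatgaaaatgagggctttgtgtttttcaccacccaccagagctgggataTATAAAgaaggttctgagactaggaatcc
KRTAP13-1 (chr21:30395951-30396030, plus strand): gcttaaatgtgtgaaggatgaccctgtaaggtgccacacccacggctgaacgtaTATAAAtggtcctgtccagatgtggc
KRTAP5-3 (chr11:1608464-1608543, minus strand): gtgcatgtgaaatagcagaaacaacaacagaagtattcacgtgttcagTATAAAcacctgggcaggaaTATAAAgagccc

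In KRTAP19-1, KRTAP8-1, KRTAP13-1 and KRTAP5-3 a TATAAA began 28, 29, 26 and 32 bases before the start. KRTAP5-3 holds another that began 12 bases before the start, and that of KRTAP19-8 began 50 bases before it. KRTAP19-5 holds no exact TATAAA in these 80 bases. Over the 300-base windows and both strands, 63 of 79 member promoters (79.7%) held TATAAA against 4049 of 35116 promoters in all (11.5%). On the gene strand and starting 20 to 40 bases before the start, 34 members (43.0%) and 809 promoters in all (2.3%) held it. In the first chromosome 21 cluster this share was 36.7% of 30, so the sequences shown are examples and do not represent the shares. KRTAP10-11, a member of the second chromosome 21 cluster that is not shown, held no TATAAA in its window. Member promoters were also poorer in G and C, with a median of 42.7% (31.3% to 62.7%) against 58.7%, and held a median of 2 CpG dinucleotides against 14. Base composition and the chance of an A and T motif are linked, and tandem copies are related in sequence, so these promoters are not independent points. A match is a description of the letters, not of a bound site.

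The share of windows with the motif was 87.5% of 32 on chromosome 17, 76.7% of 30 in the first chromosome 21 cluster and 73.3% of 15 in the second. Each chromosome 11 cluster had 1 matched promoter: that of KRTAP5-3 held the motif and that of KRTAP5-9 (52.7% G and C) did not. Median G and C content was 42.3%, 38.5% and 55.3% in the same order, so the KRTAP10 and KRTAP12 promoters stood nearest to the median of all promoters. Within the KRTAP19 family, KRTAP19-1 and KRTAP19-5 were identical at 59.5% of aligned positions over 250 bases before the start. The range over 15 pairs of 6 promoters was 47.2% to 66.0%, and the median of the pairs other than KRTAP19-1 with KRTAP19-5 was 49.6%.

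**Figure D1:**
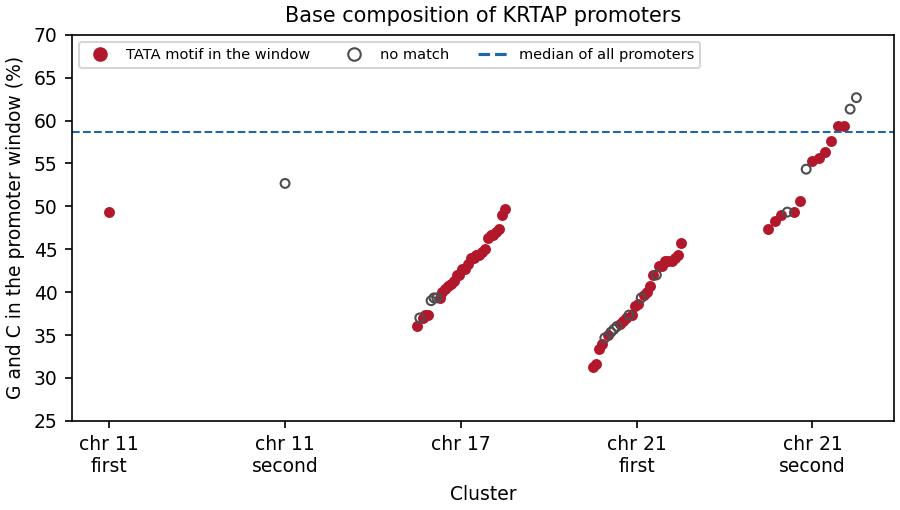
Share of G and C (percent, y axis) in the 300-base promoter window of each of the 79 matched members, by cluster (x axis); each point is a promoter, filled where TATAAA occurs on either strand and open where it does not, and the dashed line is the median of all promoters (58.7%). All matched chromosome 17 and first chromosome 21 promoters lie below the line, with medians of 42.3% and 38.5%.

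Of the 5 clusters, the first on chromosome 21 was the only one that lay in a lamina domain in these lists. In G1 and G2 the domain ran from 31000001 to 32400000 (1.4 Mb) and held 32 of the 33 members of the cluster. In S it ran from 31100001 to 32200000 (1.1 Mb) and held 30. KRTAP19-8 (32410478 to 32410795), a high glycine-tyrosine gene, began 10.48 kb beyond the end of the domain in G1 and G2. KRTAP7-1 and KRTAP11-1 were inside in G1 and G2 but began 1.36 kb and 52.96 kb beyond the shorter S domain. Domain edges lie on a grid of 100 kb, so a distance of 1.36 kb or 10.48 kb is below the resolution of the lists.

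By protein class, 21 of 22 high glycine-tyrosine genes lay inside a domain in G1 and G2 (20 in S), 11 of 39 high sulfur genes did so in G1 and G2 (10 in S), and none of the 31 ultra-high sulfur genes did in any stage. These counts restate the position of a single cluster, since every member inside a domain belongs to it.

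**Figure D2:**
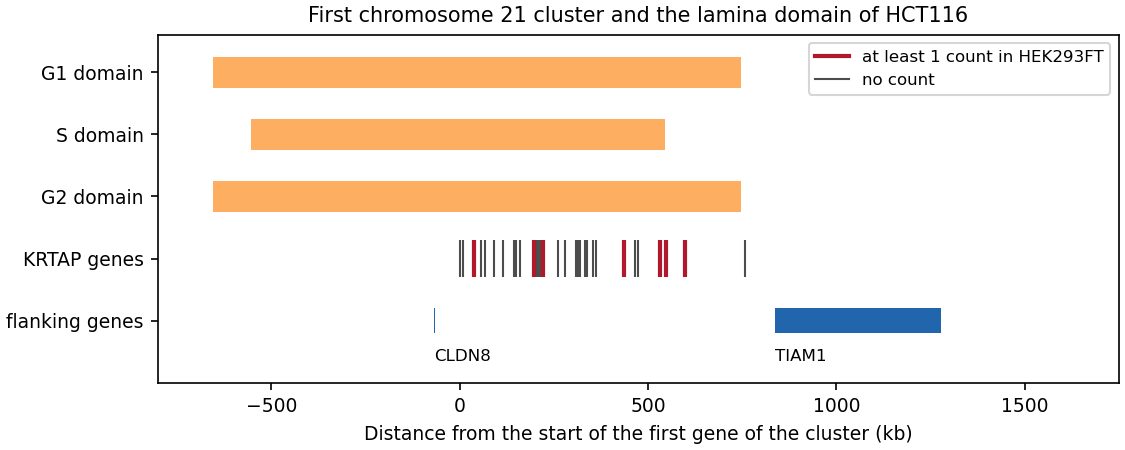
Map of the first chromosome 21 cluster, with the x axis in kb from the start of its first gene. Orange bars are the HCT116 domain in G1, S and G2, ticks are the 33 KRTAP genes (thick red with at least 1 count in HEK293FT, thin grey with none), and blue bars are the flanking genes CLDN8 and TIAM1. The S bar ends before the G1 and G2 bars, and 1 gene, KRTAP19-8, lies past the end of all 3.

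Placed inside domains were 34.4% of members in G1, 32.3% in S and 34.4% in G2, against 6.74%, 5.94% and 8.28% of the 27200 genes that the tables put on 1 standard chromosome. Among the 320 other genes of chromosome 21 the shares were 19.1%, 12.5% and 15.9%. No test was made, because the members inside share a single domain and each stage has 1 list. Most genes wholly inside the domain were KRTAP genes: of 37 such genes in G1 and G2, 32 were members. The other 5 (GRIK1-AS1, CLDN17, LINC00307, CLDN8 and MIR4327) had no count in any RNA library. Any gene that crosses an edge of the domain was left out of this count.

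The remaining 60 members lay in 4 clusters far from most domains. The first chromosome 11 cluster was 18.98 Mb from the nearest domain in G1 and 18.88 Mb in S and G2. The second was 7.31 Mb away in G1 and S, but 0.54 Mb away in G2, where a domain of 0.4 Mb (70300001 to 70700000) was listed. Distances were 5.95, 6.45 and 5.95 Mb for chromosome 17 and 3.46, 3.56 and 3.56 Mb for the second chromosome 21 cluster, in the order G1, S and G2.

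**Figure D3:**
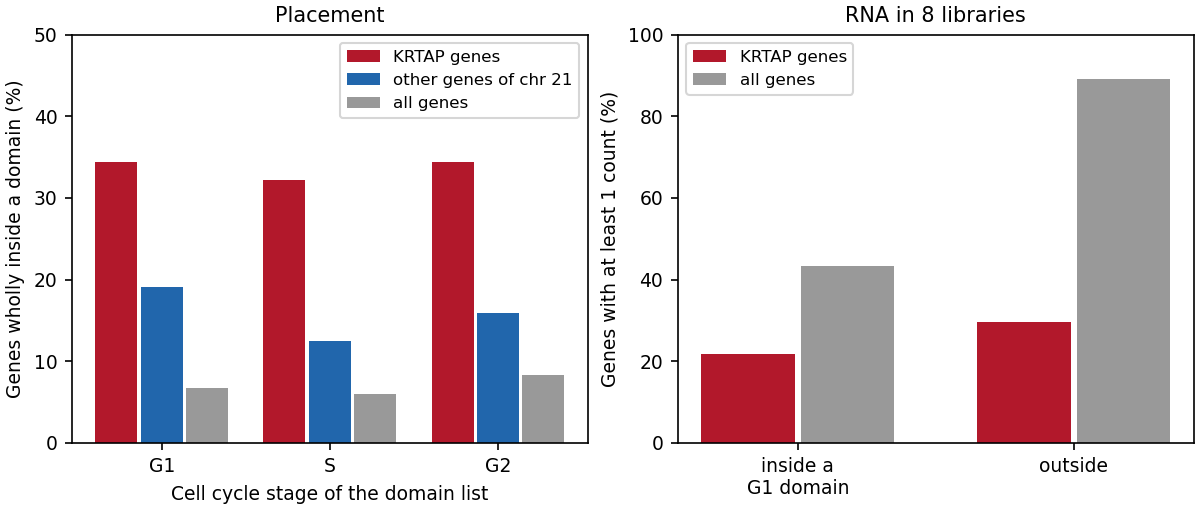
Left, the percentage of genes wholly inside a lamina domain of HCT116 (y axis) in the G1, S and G2 lists (x axis), for KRTAP genes, the other genes of chromosome 21 and all genes. Right, the percentage with at least 1 count over the 8 HEK293FT libraries (y axis) inside a G1 domain and outside: all genes are at 89.2% outside and 43.2% inside, and KRTAP genes at 29.5% and 21.9%.

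RNA was sparse in every cluster. Counts were found for 25 of 93 members (26.9%), against 23649 of 27630 genes (85.6%). The members are short, with 147 to 1650 exonic bases, so levels were also set per length. All members together had 3.74 counts per exonic kb over the 8 libraries (95% exact Poisson interval 3.31 to 4.22), where the median of all genes was 82.0. That density includes the reads of KRTAP5-2, which may in part be of KRTAP5-AS1. Without KRTAP5-1, KRTAP5-2, KRTAP19-1 and KRTAP19-5 the other 89 members had 29 counts, or 0.420 per exonic kb (0.281 to 0.603). For a member with no count, 3 counts over all libraries set a limit of 0.0612 CPM. These intervals and limits cover counting error alone.

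Inside the G1 domain, 7 of 32 members (21.9%) had a count, and outside 18 of 61 (29.5%) did. For all genes the same shares were 43.2% of 1834 and 89.2% of 25035, and for other genes of chromosome 21 they were 49.2% of 61 and 93.6% of 251. Most members had no count outside domains as well as inside. Per exonic kb and without the 4 members with the most counts, members inside had 0.363 counts (0.118 to 0.847) and members outside 0.434 (0.278 to 0.646), so a difference was not detectable at this depth.

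**Figure D4:**
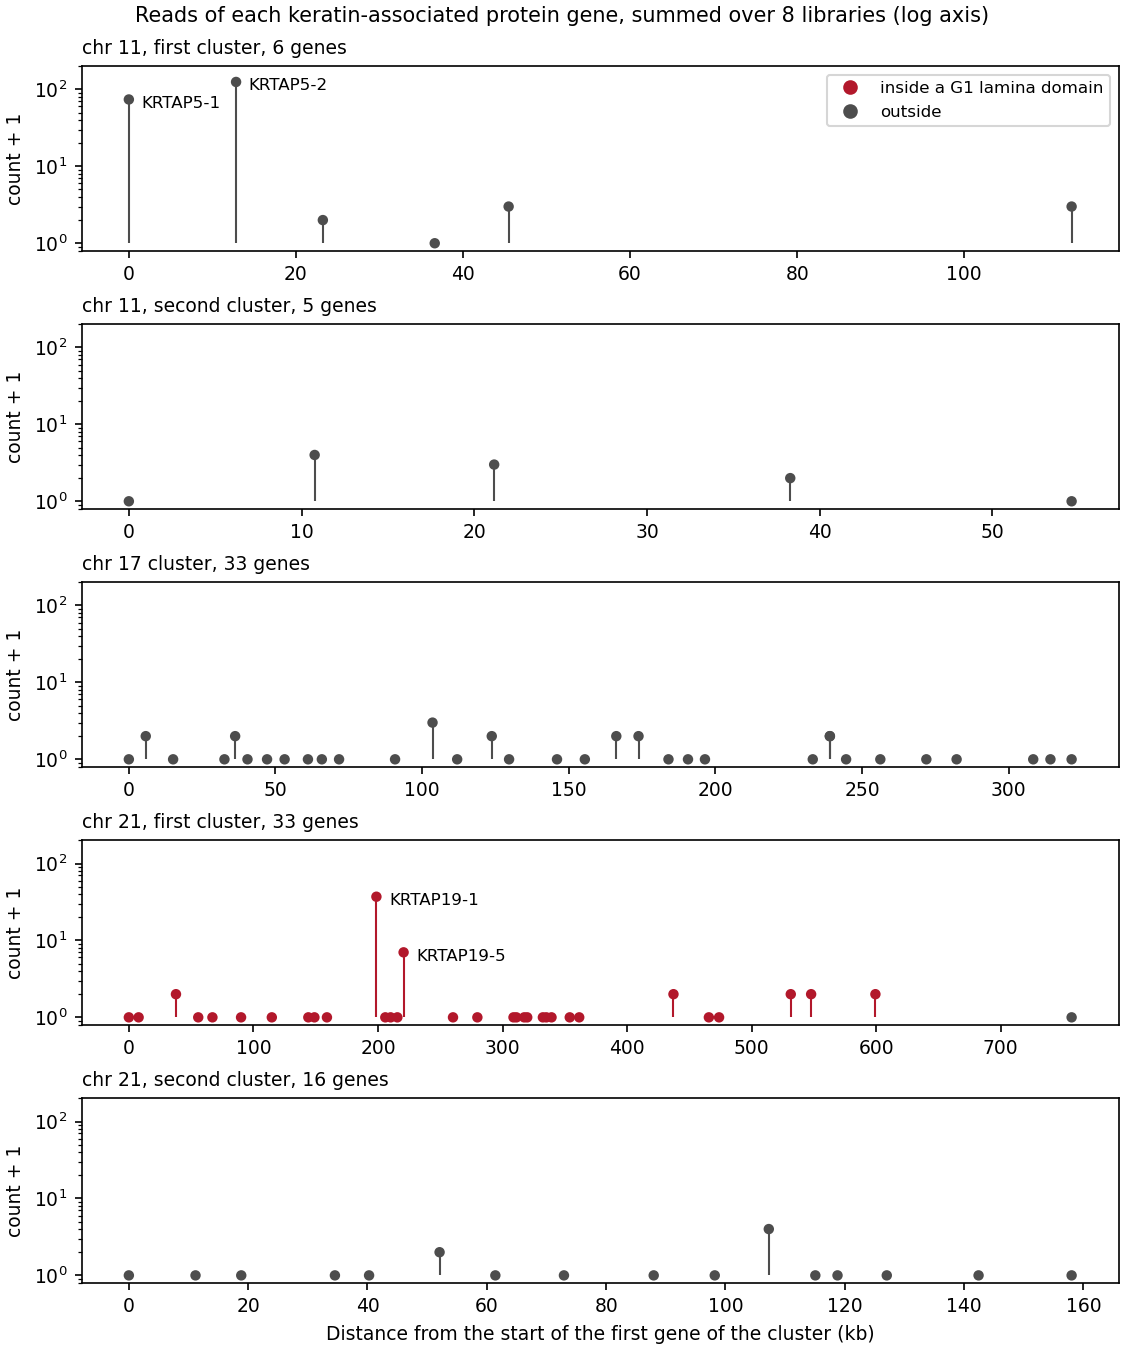
Counts of each of the 93 members summed over the 8 HEK293FT libraries, plus 1 on a log axis (y), against distance in kb from the start of the first gene of the cluster (x), with 1 panel per cluster. Red points lie inside a G1 lamina domain and grey points outside. KRTAP5-2 (124 counts), KRTAP5-1 (73) and KRTAP19-1 (36) stand above the rest, and most points sit at no count.

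Neighbours of the clusters were often expressed. The first chromosome 11 cluster lies 12.4 kb from DUSP8, a phosphatase of MAP kinases with 1768 counts, and 34.7 kb from IFITM10, with 132. The second lies 25.7 kb from NADSYN1, an enzyme of NAD synthesis with 808 counts, and 204.6 kb from FAM86C1, with 255. Past the domain on chromosome 21, TIAM1, an activator of the GTPase RAC1, lies 79.9 kb from the last member and had mean normalised CPM of 87.6 in nuclear RNA, 97.4 in cytosolic RNA, 112.0 in native lamina RNA and 75.9 in PFA-fixed lamina RNA. On its other side CLDN8, a tight junction gene 65.2 kb from the first member and inside the domain, had no count. TSPEAR, whose span contains the whole second chromosome 21 cluster, had 20 counts, and UBE2G2, a ubiquitin-conjugating enzyme 70.5 kb from it, had 3834. The chromosome 17 cluster was flanked by the hair keratin genes KRT40 (2 counts) and KRT33A (none).

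KRTAP5-2 (chromosome 11, 1618407 to 1619524, minus strand, 1118 exonic bases), an ultra-high sulfur gene, had the most counts of the family. It had 5 and 3 counts in nuclear RNA, 1 and 1 in cytosolic RNA, 46 and 14 in native lamina RNA and 43 and 11 in PFA-fixed lamina RNA. Every lamina library was above every fraction library, by count and by CPM. In CPM normalised with TMM factors, the means were 0.647 ± 0.186 in nuclear RNA, 0.173 ± 0.055 in cytosolic RNA, 3.42 ± 1.92 in native lamina RNA and 6.0 ± 2.76 in PFA-fixed lamina RNA (SD, n = 2 each). The levels of both fractions were near or under the floor of 3 counts. LMNB1 also took a larger share of counts in the same 4 lamina libraries (2.96% to 9.49%), and its part in this difference was not tested.

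Only 2 members passed the filter on low counts and could be tested, KRTAP5-2 and KRTAP5-1. KRTAP5-2 passed through its lamina libraries, where it is high. With no filter, 25 members were tested and KRTAP5-2 was again called in the contrasts below. That run used the same libraries and called more genes in all. In the order of the contrasts below it called 3396, 4026 and 1526 of 23649 genes, against 2271, 2878 and 111 of 16504 with the filter. With the filter, KRTAP5-2 was called at an adjusted p under 0.05 in 3 of 6 contrasts by edgeR's quasi-likelihood test with Benjamini-Hochberg adjustment over 16504 genes. Native lamina RNA held more of it than cytosolic RNA did, with a log2 fold change of 4.23 (SE 0.95, adjusted p = 0.0151), where 13.8% of all tested genes were called. It was higher in PFA-fixed lamina RNA than in nuclear RNA, by 3.20 (SE 0.78, adjusted p = 0.0193), where 17.4% were called and it ranked 12 of 16504 genes by log2 fold change. It was also higher in PFA-fixed lamina RNA than in cytosolic RNA, by 5.05 (SE 0.95, adjusted p = 0.0458), where 0.673% were called. These contrasts share libraries, so their calls are not separate pieces of evidence. The shares of all genes called move with single libraries: over omissions of each library they were 0.92% to 6.65%, 0.077% to 34.7% and 0% to 16.4% in these 3 contrasts.

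Its difference between the native lamina and the nuclear fraction, 2.38 on the log2 scale (SE 0.77, adjusted p = 0.0711), missed the threshold, with 7.31% of all genes called. It passed with no filter (adjusted p = 0.0294) and with only the 4 libraries compared (0.0085), and missed with DESeq2 (0.0963), total counts (0.0512), a replicate block (0.060) and each library left out (0.136 to 0.412, log2 1.65 to 2.85). Also short of the threshold were nuclear against cytosolic (1.85, SE 1.13, adjusted p = 0.191, with 47.3% called) and PFA-fixed against native lamina (0.82, SE 0.65, adjusted p = 0.672, with 0% called). In this last contrast edgeR called no gene, while 1821 genes had an unadjusted p under 0.05 and DESeq2 called 253. As ratios of pooled counts per library total scaled by TMM factors, KRTAP5-2 was 5.60 times (95% exact counting interval 2.67 to 13.6) the nuclear level in native lamina RNA and 10.2 times (4.81 to 24.7) in PFA-fixed lamina RNA.

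These calls were lost in some omissions of a single library, while the log2 fold change stayed positive in all of them. An omission also leaves 1 library in a group, so a lost call cannot show that a particular library decided it. The call of native lamina against the cytosolic fraction was lost without cytosolic replicate 1, cytosolic replicate 2 or native replicate 1, with a log2 range of 3.47 to 4.69 and an adjusted p of 0.0449 to 0.111 over the 4 omissions. In each omission the lone library left in its group is assumed to vary like the other groups. That of PFA-fixed lamina against the nuclear fraction was lost without nuclear replicate 1, nuclear replicate 2 or PFA-fixed replicate 1 (2.61 to 3.59, adjusted p 0.00186 to 0.141). That of PFA-fixed lamina against the cytosolic fraction was lost without either cytosolic library (4.41 to 5.44, adjusted p 0.0125 to 0.266).

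The reads of KRTAP5-2 cannot be assigned to it alone. KRTAP5-AS1, an antisense RNA gene on the plus strand (1593971 to 1620414), covers 1047 of its 1118 exonic bases, strand was ignored in counting, and reads that overlapped several genes were counted for each. KRTAP5-AS1 had 11 and 9 counts in nuclear RNA, 9 and 1 in cytosolic RNA, 79 and 33 in native lamina RNA and 70 and 23 in PFA-fixed lamina RNA. It followed the same order of groups as KRTAP5-2, with lamina libraries above all fraction libraries. Per exonic kb, the mean normalised CPM of KRTAP5-2 was 0.579, 0.154, 3.06 and 5.36 and that of KRTAP5-AS1 was 0.719, 0.312, 2.89 and 4.72, in the order nuclear, cytosolic, native and PFA-fixed. KRTAP5-AS1 was called in the same 3 contrasts, with log2 fold changes of 3.05 (edgeR: SE 0.69, adjusted p = 0.0150), 2.71 (edgeR: SE 0.64, adjusted p = 0.0169) and 3.76 (edgeR: SE 0.70, adjusted p = 0.0429). These calls were also lost in some omissions of a single library. The first was lost without cytosolic replicate 2 or native replicate 1 (log2 2.42 to 4.82 over omissions, adjusted p 0.0486 to 0.103), the second without either nuclear library or PFA-fixed replicate 1 (2.37 to 2.99, adjusted p 0.0016 to 0.137), and the third without either cytosolic library (3.14 to 5.54, adjusted p 0.00705 to 0.266). Reads on the shared bases were counted for both genes, so the like order of groups and the same 3 calls are not separate evidence. KRTAP5-AS1 had more counts than KRTAP5-2 in every lamina library, so part of its lamina reads did not overlap KRTAP5-2. Whether the lamina reads on the shared bases belong to the keratin-associated gene, its antisense partner or both cannot be told apart in these counts.

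KRTAP5-1 (1605572 to 1606513, minus strand, 942 exonic bases), the next gene along and also ultra-high sulfur, lies within the span of KRTAP5-AS1 but shares no exonic base with it. It had 9 and 23 counts in nuclear RNA, 5 and 2 in cytosolic RNA, 5 and 15 in native lamina RNA and 8 and 6 in PFA-fixed lamina RNA. Both nuclear and both PFA-fixed libraries were above both cytosolic ones, and the native lamina libraries overlapped every other group. Its normalised CPM was 2.68 ± 1.80, 0.546 ± 0.174, 1.37 ± 1.2 and 1.84 ± 0.515 in the order nuclear, cytosolic, native and PFA-fixed (SD, n = 2 each).

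KRTAP5-1 was called in none of the 6 contrasts. Nuclear against cytosolic gave a log2 fold change of 2.20 (edgeR: SE 0.96, adjusted p = 0.0737). Against the nuclear fraction the native lamina was at -1.0 (edgeR: SE 0.85, adjusted p = 0.460) and the PFA-fixed lamina at -0.57 (edgeR: SE 0.89, adjusted p = 0.678), opposite in sign to KRTAP5-2. Against the cytosolic fraction the values were 1.2 (edgeR: SE 0.99, adjusted p = 0.427) and 1.63 (edgeR: SE 1.03, adjusted p = 0.369). PFA-fixed against native lamina gave 0.44 (edgeR: SE 0.92, adjusted p = 0.894). The sign of 3 of the 6 contrasts (PFA-fixed against nuclear, native against cytosolic and PFA-fixed against native) changed when a library was left out, so no direction is given for the lamina.

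**Figure D5:**
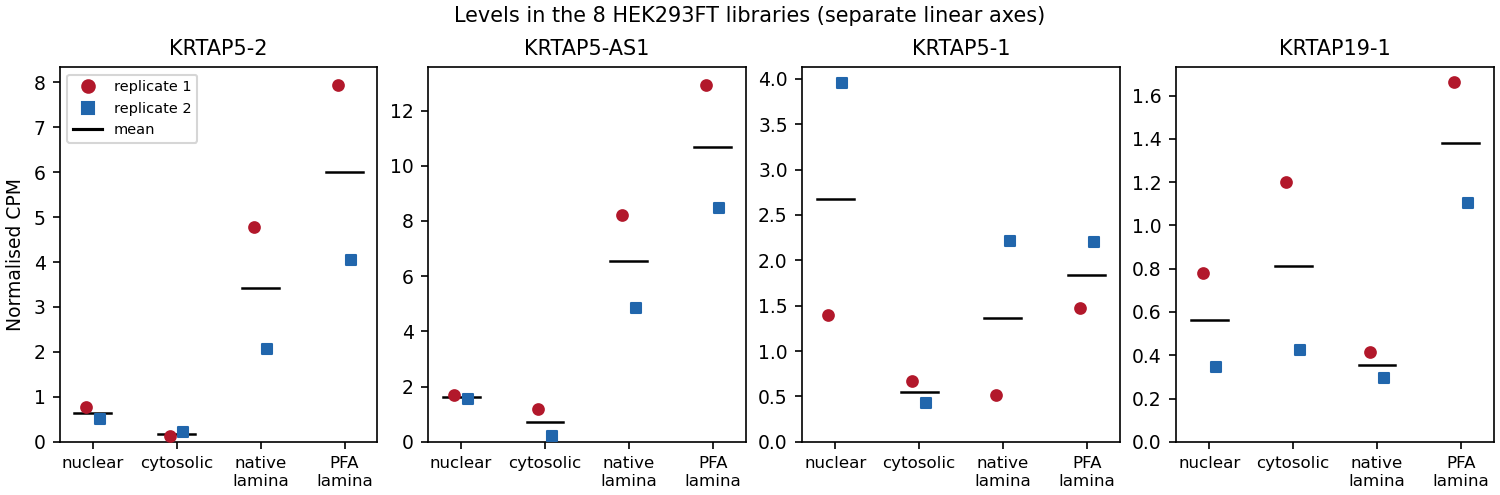
Normalised CPM (y axis, a separate linear axis for each gene) of KRTAP5-2, KRTAP5-AS1, KRTAP5-1 and KRTAP19-1 in the 4 groups of HEK293FT libraries (x axis). Circles are replicate 1, squares replicate 2 and bars the mean of 2. KRTAP5-2 and KRTAP5-AS1 are higher in all lamina libraries than in all fraction libraries, KRTAP5-1 is highest in nuclear replicate 2, and KRTAP19-1 is higher in replicate 1 than in replicate 2 of every group.

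KRTAP19-1 (chromosome 21, 31852364 to 31852636, minus strand, 273 exonic bases), a high glycine-tyrosine gene inside the domain in all 3 stages, was, with KRTAP5-1 and KRTAP5-2, a member with counts in all 8 libraries. It had 5 and 2 counts in nuclear RNA, 9 and 2 in cytosolic RNA, 4 and 2 in native lamina RNA and 9 and 3 in PFA-fixed lamina RNA. By count the groups overlapped, and replicate 1 was above replicate 2 in each. It did not pass the filter and was not tested. Its normalised CPM was 0.561 ± 0.307, 0.813 ± 0.552, 0.355 ± 0.0856 and 1.38 ± 0.396 in the order nuclear, cytosolic, native and PFA-fixed (SD, n = 2 each). Per exonic kb this was 2.05, 2.98, 1.30 and 5.07, so that in PFA-fixed lamina RNA it was near the 5.36 of KRTAP5-2. By pooled counts per library total scaled by TMM factors, the PFA-fixed lamina was at 2.58 times the nuclear level (95% exact counting interval 0.937 to 7.74), an interval that includes no difference. It was at 4.04 times the native lamina level (1.40 to 13.1). In normalised CPM both PFA-fixed libraries were above the nuclear and native ones but not above both cytosolic ones.

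KRTAP19-5 (31874190 to 31874408), its relative in the same array, had 6 counts, of which 1 was in nuclear, 2 in cytosolic, 2 in native and 1 in PFA-fixed lamina replicate 1. No replicate 2 library held a read of it. KRTAP19-1 and KRTAP19-5 gave 36 and 6 of the 47 counts of their cluster. The other 5 detected members there, KRTAP7-1, KRTAP8-1, KRTAP11-1, KRTAP21-3 and KRTAP26-1, had 1 count each, and 26 members had none. Without KRTAP19-1 and KRTAP19-5 the cluster fell from 3.22 (2.37 to 4.28) to 0.355 (0.115 to 0.827) counts per exonic kb.

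In the first chromosome 11 cluster, KRTAP5-2 and KRTAP5-1 gave 124 and 73 of the 202 counts, and the cluster had 34.7 counts per exonic kb (30 to 39.8). The reads of KRTAP5-2 in this density may in part be of KRTAP5-AS1. KRTAP5-3 had 1 count, KRTAP5-5 and KRTAP5-6 had 2 each, and KRTAP5-4 had none. In the second chromosome 11 cluster KRTAP5-8 had 3 counts, KRTAP5-9 had 2 and KRTAP5-10 had 1, while KRTAP5-7 and KRTAP5-11 had none (1.12 counts per exonic kb, 0.412 to 2.44).

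On chromosome 17, 25 of 33 members had no count, and the whole cluster had 9 (0.302 counts per exonic kb, 0.138 to 0.573). KRTAP4-8 had 2, both in PFA-fixed replicate 2. KRTAP1-4, KRTAP3-2, KRTAP4-3, KRTAP4-4, KRTAP4-11, KRTAP9-3 and KRTAP9-9 had 1 each. KRTAP4-8 shares 251 exonic bases with KRTAP4-11, and KRTAP9-3 shares 52 with KRTAP9-9, so those reads are uncertain. In the second chromosome 21 cluster KRTAP10-11 had 3 counts, KRTAP10-6 had 1 and 14 members had none (0.25 counts per exonic kb, 0.068 to 0.639). Near-identical copies within a family could also share reads.

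Across libraries, 11 and 10 members had a count in nuclear RNA, 5 and 3 in cytosolic RNA, 9 and 4 in native lamina RNA and 5 and 7 in PFA-fixed lamina RNA. Of the 25 detected members, 20 had no read in cytosolic RNA, and 18 were seen in 1 library alone. Members other than KRTAP5-1, KRTAP5-2, KRTAP19-1 and KRTAP19-5 gave 15 counts in nuclear RNA (8 and 7, from 14 members), 2 in the cytosolic (2 and 0), 6 in native lamina RNA (5 and 1) and 6 in PFA-fixed lamina RNA (1 and 5). As CPM of pooled counts these were 1.13 (95% exact Poisson interval 0.635 to 1.87), 0.153 (0.0185 to 0.552), 0.412 (0.151 to 0.898) and 0.734 (0.269 to 1.60). The nuclear and cytosolic intervals did not overlap, and those of both lamina groups overlapped each of them. No test was made over these 21 members, which were set apart by their low counts. Other genes with 1 to 3 counts showed a like pattern: of 2525 such genes 92.7% had no cytosolic read, against 20 of the 21 members (95.2%), and 55.6% of their counts were nuclear and 6.1% cytosolic, against 51.7% and 6.9%. A single library held all reads of 61.9% of them and of 18 of the 21 members (85.7%). A gene with exactly 1 count can be in 1 library only. Such genes were 15 of the 21 members and 1264 of the 2546 genes with 1 to 3 counts in the whole table. These 2 shares are thus not comparable as they stand.

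Other genes of the hair shaft had few counts. Of 17 hair shaft keratin genes 11 had a count (64.7%), none passed the filter, and together they had 0.722 counts per exonic kb (95% exact Poisson interval 0.463 to 1.07), against 0.420 (0.281 to 0.603) for the 89 members above. Those 89 leave out the 4 members with the most counts, while no keratin was left out. All members together had 3.74 (3.31 to 4.22). The hair shaft keratins with the most counts were KRT86 (5 counts), KRT84 (4), KRT34 (3) and KRT38 (3). Of 8 inner root sheath keratin genes 4 had a count, led by KRT27 (6) and KRT28 (3), and none passed the filter. Among 5 keratins of simple epithelia, 2 passed it, KRT8 and KRT18, the intermediate filament pair of simple epithelia. Both were lower in nuclear against cytosolic RNA (KRT8 by log2 -2.22, edgeR adjusted p = 0.00078, and KRT18 by log2 -2.20, edgeR adjusted p = 0.000602), where 47.3% of all genes were called. Against nuclear RNA, KRT8 was higher by 1.67 (native, with 7.31% of all genes called) and 1.84 (PFA-fixed, with 17.4% called), and KRT18 by 1.10 and 1.29. The native lamina calls of both were lost on leaving out any of the 4 libraries compared (adjusted p 0.0558 to 0.203 and 0.124 to 0.309), and their PFA-fixed lamina calls without nuclear replicate 1 (0.110 and 0.174), that of KRT18 also without nuclear replicate 2 (0.0501) or PFA-fixed replicate 1 (0.0804). Against cytosolic RNA, KRT18 was lower in native lamina RNA by log2 -1.09, a call in a contrast where 13.8% of all genes were called. It was at -0.91 in PFA-fixed lamina RNA, and KRT8 was at -0.55 (native) and -0.38 (PFA-fixed), none of these called. The KRT8 and KRT18 genes share 135 exonic bases on opposite strands, so some reads were counted for both.

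Regulators of hair formation had 1 to 1297 counts. The list holds transcription factors of the hair follicle (HOXC13, FOXN1, LEF1, DLX3, MSX2 and GATA3), cross-linking enzymes such as TGM1 and the lipid receptor LPAR6. All 13 of its genes had a count, where 85.6% of all genes did, and 7 passed the filter, where 16504 of 27630 (59.7%) did. DSG4, S100A3, FOXN1 and TGM3 had 1, 2, 4 and 8 counts. In nuclear against cytosolic RNA 4 were lower (HOXC13, LEF1, MSX2 and GATA3) and 2 higher (TGM1 and LPAR6, named after their values were seen), with a median log2 fold change of -0.91 over the 7 against 0.13 over all genes, of which 47.3% were called. Against the nuclear fraction, 2 were higher in native lamina RNA (HOXC13 and GATA3; median 0.69 against -0.07, with 7.31% of all genes called) and 4 in PFA-fixed lamina RNA (HOXC13, LEF1, MSX2 and GATA3; median 1.02 against -0.04, with 17.4% called), and none was lower. Against the cytosolic fraction, TGM1 was higher in native lamina RNA and none of the 7 was called in PFA-fixed lamina RNA. The 4 genes higher in PFA-fixed lamina RNA were the 4 lower in nuclear against cytosolic RNA. Both contrasts use the same nuclear libraries, so this match is not separate evidence. Of cytosolic RNA markers, ACTB was called against the nuclear fraction at 1.48 (native) and 1.39 (PFA-fixed). GAPDH (0.54 and 0.68) and EEF1A1 (0.41 and 0.34) were not called. The nuclear RNA markers MALAT1 and NEAT1 were at -0.63 and -1.89 (native, not called) and at -2.90 and -3.03 (PFA-fixed, both called). The source of these values was not tested. In nuclear against cytosolic RNA the calls of HOXC13 and TGM1 stayed past the threshold with each library left out, while those of LEF1, MSX2, GATA3 and LPAR6 were each lost in 3 of 4 omissions (adjusted p up to 0.241, 0.0828, 0.137 and 0.0767). The native lamina calls of GATA3 (0.0879 to 0.224) and TGM1 (0.0844 to 0.262) were lost in each omission. All 4 PFA-fixed lamina calls were lost without nuclear replicate 1 (adjusted p 0.0912 for HOXC13, 0.308 for LEF1, 0.109 for MSX2 and 0.0957 for GATA3), that of MSX2 also without nuclear replicate 2 (0.0557), and that of LEF1 also without nuclear replicate 2 (0.0707) or PFA-fixed replicate 1 (0.160).

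HOXC13, a homeobox factor known to drive hair keratin and keratin-associated protein genes, had 20 and 25 counts in nuclear RNA, 143 and 63 in cytosolic RNA, 145 and 95 in native lamina RNA and 112 and 63 in PFA-fixed lamina RNA. All cytosolic and lamina libraries were above both nuclear ones. The gene shares 172 of its 2396 exonic bases with its antisense neighbour HOXC13-AS (258 counts), and those reads cannot be told apart. LEF1 likewise shares 279 of 4128 with LEF1-AS1 (147 counts). The log2 fold change of HOXC13 was -2.14 in nuclear against cytosolic RNA (edgeR: SE 0.38, adjusted p = 0.00132). It was 1.97 in native lamina RNA against the nuclear fraction (edgeR: SE 0.38, adjusted p = 0.0145), a call lost on leaving out any of the 4 libraries compared (adjusted p 0.0569 to 0.190). At the PFA-fixed lamina it was 2.56 (edgeR: SE 0.39, adjusted p = 0.00577), with an adjusted p of 0.000447 to 0.0912 over omissions and the call lost without nuclear replicate 1. FOXN1, another factor of hair keratin genes, had 4 counts in all.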

How the data were processed

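Counts per gene were deposited by the authors for each of 8 HEK293FT libraries. Per the file headers they were made with featureCounts 1.5.2 on hg19 RefFlat genes, with strand ignored and reads overlapping several genes counted for each; the headers give no option for reads that map to several places. The submitters' processing notes also list TopHat2 2.1.1 and Bowtie2 2.3.2, with no role given. Lamina domains of HCT116 were deposited as positions alone, with no score (378 for G1, 303 for S, 388 for G2), and how replicates were combined is not given in the sources used here. Other data of the series were not analysed here.

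Counts were fitted in edgeR 4.0.16 (R 4.3.3) with TMM factors, filterByExpr and a quasi-likelihood test over all 8 libraries, with calls at an adjusted p under 0.05 over 16504 genes. The SE is the log2 fold change divided by the square root of F. DESeq2 1.42.0, other scalings and filters, a replicate block and omission of each library were alternatives. Nothing in the labels says that replicates were separate cultures. The p-values rest on the spread between replicate libraries, estimated over all 4 groups in 1 fit, and this spread may be technical.

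A member was inside a domain when its whole span was. Totals per library, Wilson intervals and exact Poisson intervals (95%) describe depth and counting error. Protein classes follow family numbers as textbooks assign them, since no protein sequence was used here. Named were members that passed the filter, the 3 with most counts in each cluster, genes overlapping or flanking a cluster, and at most the 5 genes with most counts of each list. Other detected members are given so that each is accounted for, and genes outside the rule are marked where printed. Members and gene lists were chosen with earlier results of these data known.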

Additional observations from a re-analysis of the deposited data

How the results depend on the processing

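Depth is the main limit: of 25 members with a count, 3 remained at a minimum of 10 counts and 3 with more than 3 counts in a library, and 18 to 25 when each library was left out. The number of members called was the same as reported under most alternatives. For native lamina against the nuclear fraction it was 1 in place of 0 with no filter and with only the 4 libraries compared. For PFA-fixed lamina against the nuclear fraction it was 0 in place of 1 with only 4 libraries (adjusted p = 0.0544). It was 0 in place of 1 in all 3 contrasts with a call once genes with overlapping exons were left out, since KRTAP5-2 is then not tested. Over omissions of each library it ranged from 0 to 1 in those 3 contrasts. KRTAP5-1 changed sign in 3 contrasts under such omissions, with log2 ranges of -1.13 to 0.37 (PFA-fixed against nuclear, 0.37 without nuclear replicate 2), -0.30 to 1.74 (PFA-fixed against native, -0.30 without native replicate 1) and -0.11 to 1.93 (native against cytosolic, -0.11 without native replicate 2). TGM1 changed sign in PFA-fixed against nuclear RNA (-2.25 to 0.088, 0.088 without PFA-fixed replicate 1). The cause of these changes was not tested.

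With a replicate block, the members called stayed at 0, 0, 1, 1, 1 and 0 in the 6 contrasts, and calls over all genes were 8333, 1846, 3010, 3556, 404 and 0 (nuclear against cytosolic, native against nuclear, native against cytosolic, PFA-fixed against nuclear, PFA-fixed against cytosolic, PFA-fixed against native). Differences between replicates correlated between groups at -0.067 to 0.321, over 0.1 in 3 of 6 pairs of groups and not in the others, so the numbers were not taken to pair the libraries. Single genes such as KRT17, given below, did differ in the same direction between the replicates of every group. With the block MSX2 (adjusted p = 0.0422) and KRTAP5-AS1 (0.0457) were also called in native against nuclear RNA. With each library left out, calls over all genes ranged from 4073 to 5270, 10 to 179, 161 to 1152, 13 to 5985, 0 to 2869 and 0 to 742 in the same order of contrasts. Under other alternatives they moved by over 1.5 times for native lamina against the nuclear fraction (1207 as reported, 2709 with no filter, 4368 with 4 libraries, 1893 with total counts), PFA-fixed against the nuclear fraction (2878, and 604 with 4 libraries), native against the cytosolic fraction (2271, and 3590 with 4 libraries), PFA-fixed against the cytosolic fraction (111, 1526 with no filter, 1000 with DESeq2, 49 with its size factors and 54 with 4 libraries) and PFA-fixed against native (0, 272 with no filter and 253 with DESeq2). With total counts as the scale, native against nuclear calls were 1656 higher and 237 lower, in place of 639 and 568, as the median over all genes moved from -0.07 to 0.22. Clusters numbered 5 at a 500 kb gap too, and shifting domain edges by 100 kb gave 27 to 33 members inside.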

Other observations

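Among epidermal keratin genes, KRT17 differed between replicates more than between groups. Its normalised CPM in replicates 1 and 2 was 0.934 and 19.9 in nuclear RNA, 2.41 and 73.4 in cytosolic RNA, 2.29 and 56.4 in native lamina RNA and 0.370 and 20.6 in PFA-fixed lamina RNA, so replicate 2 was higher in 4 of 4 groups. KRTAP19-1 and KRTAP19-5 had more counts in replicate 1 of every group. The choice of these genes was made after their values were seen, and what sets the replicates apart was not tested. KRT10, a keratin of the upper epidermis, had 612 counts over the 8 libraries, while KRT1, its usual partner, had none.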
